A study of Mus musculus with 8 samples.

Results

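The sarcomere, Z-disc and M-band genes form a panel of 37 genes that encode the contractile filaments of striated muscle, the discs and bands that anchor them, and proteins bound to these structures. Members were taken as probe sets that the platform annotation assigns to a single symbol of the panel, with the probe set of highest mean log2 signal over all 8 arrays standing for its gene. Of the 37 genes 36 had such a probe set, among 18193 genes in all, and Xirp2 had none used here. The signal of 35 members passed the limit for testing (the 40th percentile of mean log2 signals over all probe sets, a signal of 19.9), among 12318 genes tested. Tnni1, which encodes slow skeletal troponin I, stayed below it.

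The arrays compared 2 sorted cell types of the adult male mouse heart, Purkinje cells, which carry the impulse through the far end of the conduction system, and ventricular myocytes. There were 4 arrays of each, and same-numbered arrays came from 1 heart. All animals, those behind the ventricular arrays included, carried the Cntn2-EGFP reporter, the a-MHC-Cre driver and the floxed-tdTomato reporter, on a background mixed from the CD1, C57/B6 and 129S1 strains. The a-MHC driver is named for alpha myosin heavy chain, the product of the member Myh6, so the Cre is expected in cardiac myocytes of either kind. Signals are MAS5 intensities on a linear scale, and 4 arrays per group limit the precision.

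In a sarcomere, myosin of the thick filament pulls on actin of the thin filament, and troponin and tropomyosin on the thin filament make this depend on calcium. Titin spans from the Z-disc, where thin filaments are anchored, to the M-band, where thick filaments are crosslinked. Many of these proteins exist as cardiac, slow skeletal and fast skeletal isoforms from separate genes, and the fetal rodent heart uses some isoforms that the adult ventricle uses little.

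Markers of the sorted Purkinje cells differed between the groups. Cntn2 is the gene whose reporter the animals carried. Its signal was 866 ± 473 (SD, n = 4) on the Purkinje arrays and 12.98 ± 8.66 on the ventricular arrays. A sort on that reporter would by itself give a Cntn2 difference, so Cntn2 is not separate support for the sort. On 3 ventricular arrays Cntn2 was also under the limit for testing, so no size of difference is given. Gja5, which encodes connexin 40, had 818 ± 436 on the Purkinje arrays and 34.7 ± 10.8 on the ventricular arrays. The summed signal of 9 measured Purkinje markers was 2223 on Purkinje replicate 1, 4476 to 7484 on the other Purkinje arrays and 596 to 864 on the ventricular arrays, so Purkinje replicate 1 stood nearest to the ventricular arrays. Results are therefore also given without heart 1. Markers of other cell types were also called higher on the Purkinje arrays, in the blocked fit given below, where 9.64% of all tested genes were higher and 7.48% lower. Of 12 tested endothelial markers 11 were higher, with a summed signal of 3071 to 8076 on Purkinje and 1427 to 4604 on ventricular arrays. Of 10 fibroblast markers 5 were higher (sums of 2458 to 3791 against 1310 to 2398). Of 11 tested smooth muscle and pericyte markers 8 were higher and 1, the panel member Des, was lower (11261 to 16622 against 9043 to 11673 over the 12 markers with a probe set). Of 7 tested atrial markers 6 were higher (8421 to 15782 against 870 to 2012 over 8), and of 4 tested leukocyte markers 1 was (309 to 944 against 319 to 425 over 9, with overlap). In the fit without the heart block 2 endothelial, 2 fibroblast, 2 smooth muscle and pericyte, 2 atrial and 0 leukocyte markers passed. Of all tested genes 2.96% passed in that fit. No marker of these lists was at 0 on any array. In such sorted samples, fewer myocytes and less RNA per myocyte cannot be told apart, and the part of other cells in the differences below was not tested.

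Among sarcomere genes the isoform genes Myh7 and Tnnt1 rose in Purkinje cells, a set led by Acta1 and Myot fell, and most members did not pass the test. With limma, the heart as a block and Benjamini-Hochberg adjustment over all 12318 genes, 9 of 35 tested members passed an adjusted p of 0.05, where 17.1% of all tested genes did. The 2 higher members were 5.71% of those tested, where 9.64% of all tested genes were higher. The 7 lower members, Mybpc3, Acta1, Myom1, Myot, Des, Trim63 and Smpx, were 20% of those tested, where 7.48% of all tested genes were lower. The other 26 members did not pass, 22 with a log2 difference below 0 and 4 above, from -0.53 (Flnc) to 0.19 (Synpo2l). The median log2 difference of the tested members was -0.17, and that of all tested genes was 0.05. In the fit without the heart block none of the 9 passed (365 of all genes did, or 2.96%), while 2 higher and 10 lower members had an unadjusted limma p under 0.05 (12.8% and 9.2% of all tested genes). After quantile normalization 4 members were higher and 4 lower (6.67% and 5.71% of all tested genes), and the median was -0.06 for the members and -0.06 for all tested genes. After median centring 1 member was higher and 27 lower (5.59% and 31% of all tested genes).

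**Figure D1:**
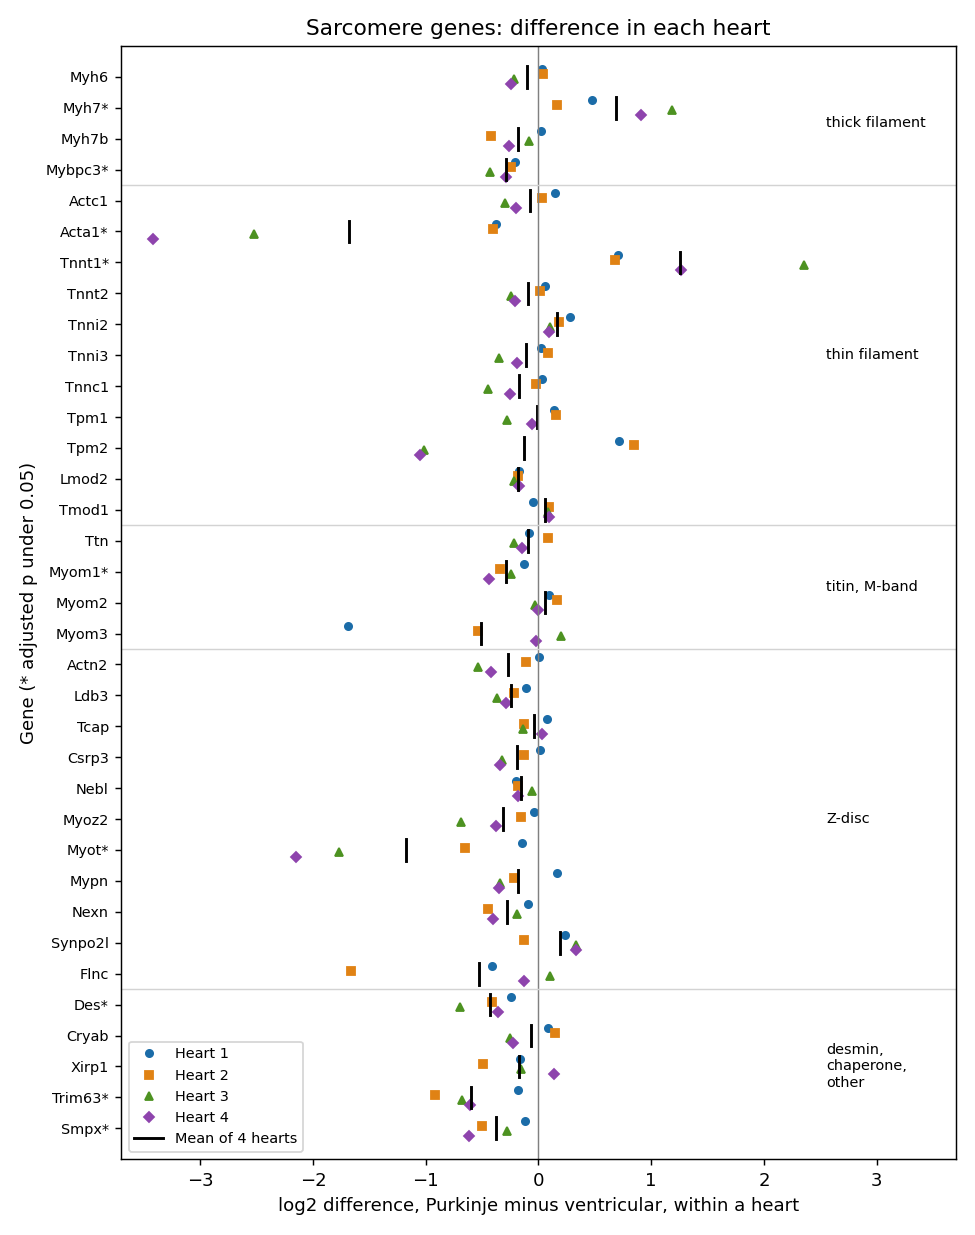
Log2 difference in signal, Purkinje minus ventricular, within each of the 4 hearts (symbols) for the 35 tested members (rows, by role), with the mean as a black bar; an asterisk marks an adjusted p under 0.05. Most members lie close to 0, while Acta1 and Myot lie far to the left in hearts 3 and 4 and Tnnt1 and Myh7 to the right in 4 of 4 hearts.

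Of 4 thick filament genes Myh7 rose, Mybpc3 fell and Myh6 and Myh7b did not pass. The higher and the lower gene were 25% each, where 9.64% and 7.48% of all tested genes were higher and lower. Myh7 encodes beta myosin heavy chain, the slower cardiac motor, which predominates in the fetal mouse ventricle. On the arrays of hearts 1 to 4 its signal (probe set 1448553_at) was 2058, 3341, 3576 and 3955 in Purkinje cells and 1483, 2987, 1572 and 2099 in ventricular myocytes. The Purkinje array was the higher one in each heart, but the groups overlapped, since ventricular replicates 2 and 4 exceeded Purkinje replicate 1. Myh7 rose by a log2 difference of 0.68 ± 0.14 (SE), or 1.61-fold (adjusted p = 0.00765, limma). Without any 1 heart it still passed (adjusted p 0.00246 to 0.0499), without the block it did not (0.135), and after median centring it was at 0.28 (0.237).

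Myh6 encodes alpha myosin heavy chain, the main motor of the adult mouse heart. Its signal was 9562, 10505, 9058 and 9557 on the Purkinje arrays and 9354, 10234, 10496 and 11339 on the ventricular arrays. These groups overlapped, with the Purkinje array slightly higher in hearts 1 and 2 and lower in hearts 3 and 4. The log2 difference was -0.10 with a 95% interval of -0.28 to 0.08 (adjusted p = 0.459, limma). The second Myh6 probe set gave -0.03.

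Mybpc3, which encodes cardiac myosin binding protein C, a brace and brake on the myosin heads, had signals of 4089, 4160, 4535 and 5027 in Purkinje cells and 4715, 4911, 6111 and 6145 in ventricular myocytes. Purkinje replicate 4 lay above 2 ventricular arrays. Mybpc3 was lower on the Purkinje array of each heart, by a log2 difference of -0.29 ± 0.08 (adjusted p = 0.0307). This call ended without heart 2, 3 or 4 (0.108 to 0.130), after quantile normalization (0.107) and with no filter (0.0626). Myh7b, an ancestral myosin heavy chain gene, was at 319 to 549 in Purkinje and 376 to 657 in ventricular arrays, with a log2 difference of -0.19 (adjusted p = 0.370).

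Among thin filament genes, 1 of 11 tested members rose and 1 fell (9.09% each, where 9.64% and 7.48% of all tested genes did). Tnnt1 encodes slow skeletal troponin T, an isoform of the protein that ties the troponin complex to tropomyosin. Its signal (probe set 1419606_a_at) was 188, 285, 761 and 460 on the Purkinje arrays and 115, 177, 149 and 191 on the ventricular arrays. Purkinje replicate 1 fell within the ventricular range, and the other 3 Purkinje arrays lay above it. Tnnt1 rose by 1.25 ± 0.24 on the log2 scale, or 2.38-fold (adjusted p = 0.00546). It passed without any 1 heart (0.000869 to 0.0300), after quantile normalization (0.0137) and after median centring (0.00721), but not without the block (0.0833).

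Acta1 encodes skeletal alpha-actin, which the fetal heart uses and the adult ventricle largely replaces by the cardiac form. Its signal (probe set 1427735_a_at) was 980, 1343, 333 and 208 in Purkinje cells and 1268, 1775, 1914 and 2224 in ventricular myocytes. The Purkinje arrays of hearts 3 and 4 were far below all others, 5.75-fold and 10.7-fold under their ventricular partners, while hearts 1 and 2 gave log2 differences of -0.37 and -0.40. Purkinje replicate 2 lay within the ventricular range. Over the 4 hearts Acta1 fell by 1.68 on the log2 scale (SE 0.40, adjusted p = 0.0138), and it did not pass without heart 3 (0.0917), without heart 4 (0.0578) or with robust variances (0.20). On the same 4 Purkinje arrays the summed endothelial signal was 8076, 7198, 4659 and 3071, and the 3' to 5' ratio of the Gapdh control probe sets was 1.24, 1.28, 1.64 and 1.72. On the ventricular arrays that ratio was 1.23, 1.20, 1.51 and 1.51. The part of the ratio or of the endothelial signal in the Acta1 result was not tested.

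The main cardiac forms did not pass. Actc1, cardiac alpha-actin, was at 9404, 9067, 9070 and 9478 in Purkinje and 8520, 8853, 11120 and 10876 in ventricular arrays, a log2 difference of -0.08 (95% interval -0.27 to 0.11). Tnnt2, cardiac troponin T, was at 11436, 12087, 11534 and 11594 in Purkinje and 10975, 11992, 13658 and 13396 in ventricular arrays (-0.10, interval -0.27 to 0.08). In both genes the Purkinje arrays lay inside the ventricular range. Tnni3, the inhibitory cardiac troponin I, was at 7851, 8250, 8062 and 8632 against 7726, 7802, 10283 and 9838 (-0.11, interval -0.30 to 0.08). The calcium sensor Tnnc1 was at 7669, 7714, 7402 and 7959 against 7514, 7845, 10072 and 9509 (-0.17, interval -0.37 to 0.03). In both genes ventricular replicates 3 and 4 lay above all Purkinje arrays. Tpm1, alpha-tropomyosin, was at 8618, 9590, 9105 and 9834 against 7834, 8616, 11059 and 10253 (-0.01, interval -0.21 to 0.18). None of the 5 passed (adjusted p 0.222 to 0.945, limma), and in each of them the ventricular spread was the wider one.

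Troponin I isoforms of skeletal muscle were dim. Tnni1 was at 10.3, 49.6, 53.4 and 3.0 in Purkinje and 6.9, 3.3, 17.0 and 1.3 in ventricular arrays, so only Purkinje replicates 2 and 3 reached the limit for testing, and it received no test. Tnni2, the fast skeletal form, was at 34.4 to 72.9 and 28.3 to 64.2 (log2 difference 0.17, adjusted p = 0.745). Of the proteins that set thin filament length at the pointed end, Tmod1 (a capper) was at 0.06 and Lmod2 (an elongation factor) at -0.19 with an adjusted p of 0.134.

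Tropomyosin results depended on the probe set. Tpm2, beta-tropomyosin, was represented by a probe set (1449577_x_at) at 456, 655, 139 and 138 in Purkinje and 278, 364, 282 and 285 in ventricular arrays. The Purkinje array was the higher one in hearts 1 and 2 and the lower one in hearts 3 and 4 (log2 difference -0.13, adjusted p = 0.814). A second Tpm2 probe set of nearly the same mean log2 signal (8.16 against 8.17) gave 1.12, and another gave 1.23, with adjusted p values of 0.00266 and 0.000988 in a limma fit over all probe sets above the limit. The other Tpm2 probe set gave 0.33 (0.406). For Tpm1, whose probe set used had a mean log2 signal of 13.19, the dimmer probe sets at mean log2 signals of 8.42, 7.77 and 5.14 gave 0.60 (adjusted p = 0.0300), 1.21 (0.00180) and 0.12 (0.855). Tropomyosin genes make several transcripts by alternative splicing, some of them in smooth muscle and non-muscle cells, and which transcripts these probe sets read was not tested. Beside these values, the smooth muscle and pericyte markers had a median log2 difference of 1.25.

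**Figure D2:**
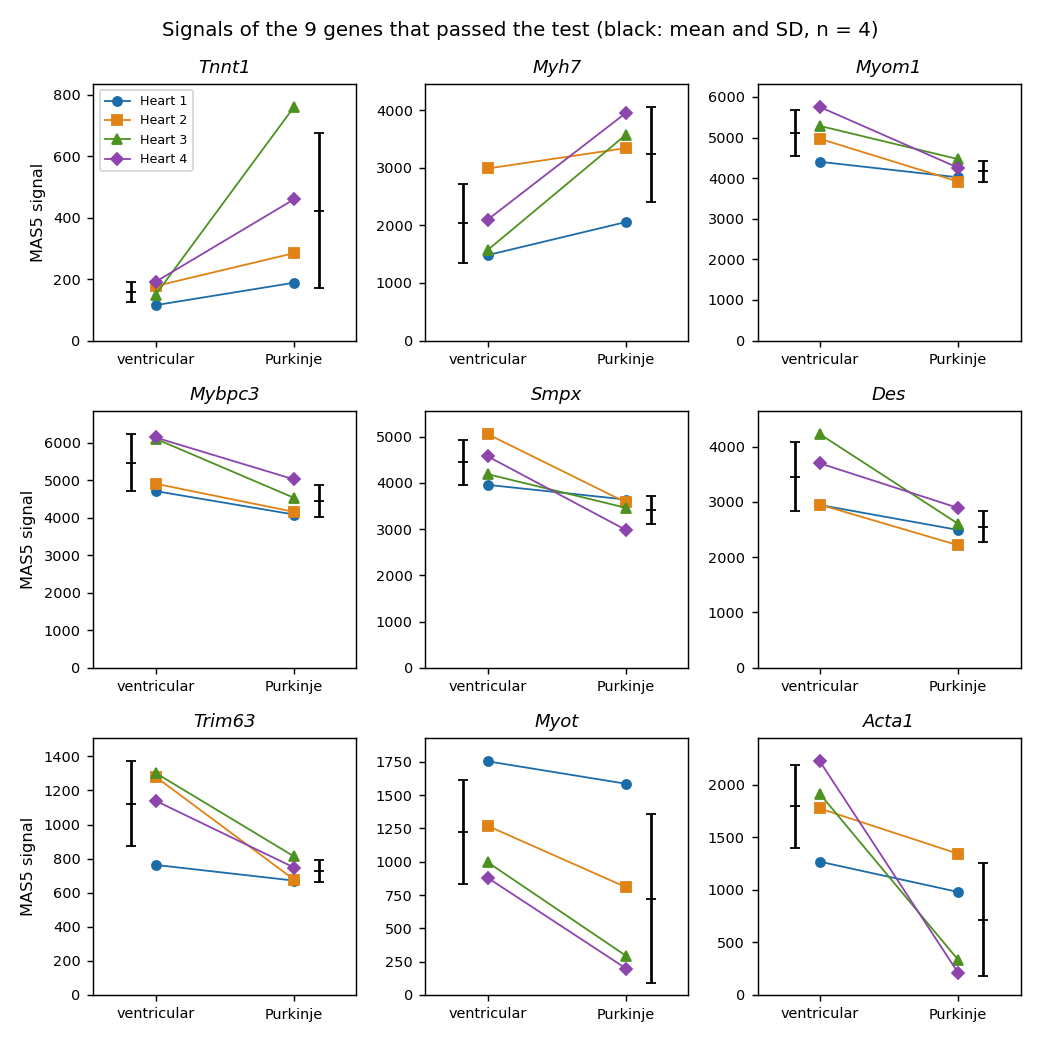
MAS5 signal (linear axis from 0) on the ventricular and Purkinje array of each heart for the 9 members that passed, with lines joining arrays of 1 heart and black marks for the mean and SD of 4 arrays. Every line rises for Tnnt1 and Myh7 and falls for the other 7, and the steepest falls of Acta1 and Myot are those of hearts 3 and 4.

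Within an array the ratio of 2 isoforms does not depend on a factor that multiplies the whole array, though quantile normalization can change it. Each skeletal or fetal isoform was therefore also set against its main cardiac counterpart, as a description chosen after its values were seen. The Myh7 to Myh6 signal ratio was higher in the Purkinje array of each heart, by 0.44, 0.12, 1.40 and 1.16 on the log2 scale. The Tnnt1 to Tnnt2 ratio was higher by 0.65, 0.67, 2.60 and 1.47. The ratio of Acta1 to Actc1 went the other way, by -0.52, -0.44, -2.23 and -3.22. These 3 directions follow from the differences of the called genes already given and received no test. With the Tnni2 probe set used, the Tnni2 to Tnni3 ratio was higher in each heart by 0.26, 0.10, 0.45 and 0.29, and that of Tnni1, dim as it was, by 0.55, 3.83, 2.00 and 1.40. A dimmer Tnni2 probe set gave a log2 difference of 0.30 (adjusted p = 0.659, limma fit over all probe sets above the limit). In heart 2 it read 30.3 in Purkinje and 46.1 in ventricular cells, so with it the ratio was not higher in each heart. After quantile normalization the log2 difference was -0.19 for Tnni2 and -0.03 for Tnni3, so the Tnni2 to Tnni3 ratio was then not higher on average. The Tpm2 to Tpm1 ratio was higher in hearts 1 and 2 (0.58 and 0.70) and lower in hearts 3 and 4 (-0.74 and -0.99). The Myh7b to Myh6 ratio changed by -0.01, -0.45, 0.13 and -0.02, and that of Myom3 to Myom1 by -1.56, -0.19, 0.45 and 0.41, so neither went 1 way in all hearts.

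**Figure D3:**
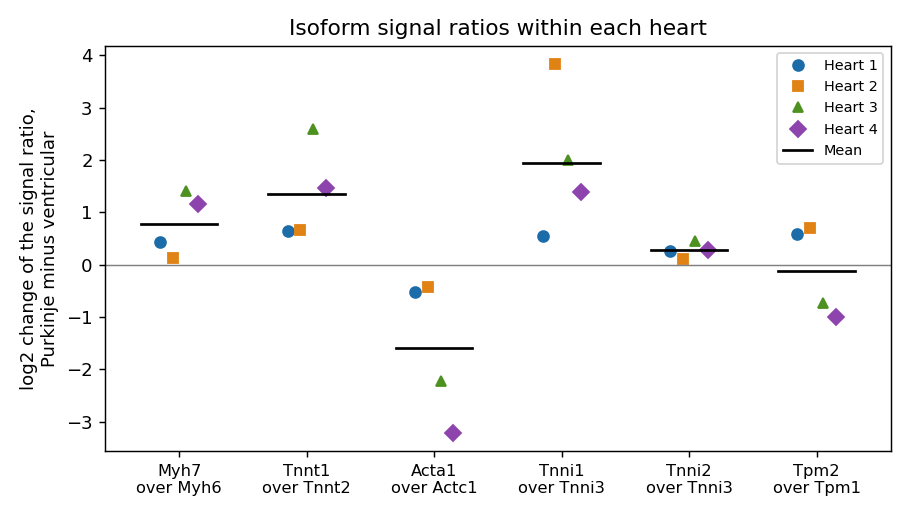
Change of the signal ratio between a skeletal or fetal isoform and its main cardiac counterpart, Purkinje minus ventricular on the log2 scale, for each heart (symbols) with the mean as a bar. The Myh7 and Tnnt1 ratios lie above 0 in 4 of 4 hearts and the Acta1 ratio below 0 in 4 of 4; Tnni1 signals were under the limit for testing on most arrays.

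Titin and the M-band showed 1 decrease among 4 tested members (25%, where 7.48% of all tested genes were lower). Myom1 encodes myomesin 1, which links thick filaments at the M-band. Its signal was 4020, 3915, 4467 and 4255 in Purkinje cells and 4402, 4970, 5286 and 5752 in ventricular myocytes, with 1 overlapping pair, Purkinje replicate 3 above ventricular replicate 1. It fell by 0.29 on the log2 scale (SE 0.09, adjusted p = 0.0377). This call ended without heart 2, 3 or 4 (0.0887 to 0.208), after quantile normalization (0.214) and with no filter (0.0742). Titin itself (Ttn) was at 6784, 6768, 6196 and 6963 against 7171, 6394, 7211 and 7722, a log2 difference of -0.09 with an interval of -0.27 to 0.09. Of its 5 other probe sets 1, with a mean log2 signal of 9.26 against 12.75, gave -0.56 (adjusted p = 0.0177 in the fit over probe sets), and the others gave -0.15 to -0.09. Myom2, the fast-fibre myomesin, was at 0.06 (adjusted p = 0.659) and after quantile normalization passed as higher. Myom3 was dim, from 14.1 to 60.5 over all arrays.

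At the Z-disc 1 of 11 members passed, as lower (9.09%, where 7.48% of all tested genes were lower). Myot encodes myotilin, an actin-crosslinking partner of alpha-actinin and filamin. Its signal (probe set 1418155_at) was 1586, 809, 293 and 198 in Purkinje and 1755, 1269, 996 and 879 in ventricular arrays, so Purkinje replicate 1 lay above 3 ventricular arrays and the other 3 Purkinje arrays below all of them. Myot fell by 1.18 on the log2 scale (SE 0.26, adjusted p = 0.00933). The differences by heart were -0.15, -0.65, -1.77 and -2.15, and the call ended without heart 3 (0.0688) and with robust variances (0.0749). As with Acta1, the 2 lowest signals were on the Purkinje arrays with the highest Gapdh 3' to 5' ratios and the lowest endothelial sums, whose part was not tested.

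The other Z-disc genes gave small negative values for the most part. Actn2, the alpha-actinin that crosslinks actin, was at 3553, 3721, 2623 and 3361 in Purkinje and 3535, 4021, 3800 and 4511 in ventricular arrays (log2 difference -0.27, interval -0.49 to -0.04, adjusted p = 0.101). Ldb3, an alpha-actinin-binding PDZ and LIM protein, had Purkinje signals of 4370 to 5063, all below the ventricular 5077 to 6168 (-0.24, adjusted p = 0.0634). Its 2 other probe sets gave -0.46 and -0.34 and passed in the fit over all probe sets (0.00699 and 0.0412). Myoz2, which tethers calcineurin to the disc, had 3795 to 4701 against 4833 to 6112 (-0.32, adjusted p = 0.0608), without overlap. Nexn, an actin-binding disc protein, was at -0.28 (0.0646), Csrp3, the muscle LIM protein, at -0.19 (0.147), Mypn at -0.19 (0.320) and Nebl, a small nebulin relative, at -0.15. The second Mypn probe set gave -0.44 and passed in the fit over all probe sets (0.0252). Ldb3, Myoz2, Nexn and Actn2 passed as lower without heart 1. Tcap, the titin cap, was at -0.04, and Synpo2l at 0.19 (0.206, and higher after quantile normalization). Flnc, the muscle filamin, had in the probe set used the widest spread of the disc genes that did not pass, with a log2 difference of -1.66 in heart 2 and 0.11 in heart 3. The second Flnc probe set, at a mean log2 signal of 8.75, did not show this spread. It gave -0.21 (0.271 in the fit over all probe sets) and in heart 2 read 412 in Purkinje and 467 in ventricular cells.

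Desmin, a ubiquitin ligase and a small costameric protein were lower. These were 3 of the 5 tested members outside the groups above (60%, where 7.48% of all tested genes were lower). Des encodes desmin, the intermediate filament that joins Z-discs to each other and to the membrane. It was at 2492, 2215, 2603 and 2890 in Purkinje cells and 2944, 2951, 4225 and 3698 in ventricular myocytes. All Purkinje arrays lay below all ventricular ones, and Des fell by 0.43 on the log2 scale (SE 0.10, adjusted p = 0.0117). The second Des probe set, at a mean log2 signal of 6.19, gave -0.16 (adjusted p = 0.727 in the limma fit over all probe sets above the limit). Pericytes and smooth muscle also make desmin, and 8 of the 11 tested markers of that list, which includes Des, were higher. The part of these cells in the Des value was not tested. Trim63 encodes MuRF1, a ligase that marks sarcomere proteins for breakdown. Its signal (probe set 1438704_at) was 671, 677, 813 and 748 against 763, 1281, 1303 and 1140, with only Purkinje replicate 3 above ventricular replicate 1. Trim63 fell by 0.60 on the log2 scale (SE 0.13, adjusted p = 0.00882).

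Smpx, a small striated muscle protein of the costamere, was at 3640, 3577, 3461 and 2980 against 3959, 5056, 4190 and 4576. The groups did not overlap, and it fell by 0.38 on the log2 scale (SE 0.10, adjusted p = 0.0211). The Des call ended without heart 2 or 3 (0.0653 and 0.0705) and with the mean of its 2 probe sets (-0.29, 0.104). That for Trim63 ended without heart 2 or 3 (0.0700 and 0.0542). The Smpx call ended without heart 2, 3 or 4 (0.0540 to 0.142) and after quantile normalization (0.115). Cryab, the chaperone of desmin and titin, was at -0.06 (adjusted p = 0.686), and Xirp1, a Xin actin-binding repeat protein of the intercalated disc, at -0.17 (0.376).

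Across the panel, Ldb3, Myoz2, Des and Smpx were the 4 tested members whose groups did not overlap, all lower in Purkinje cells, where 6.41% of all tested genes were lower without overlap. None was higher without overlap (6.25% of all tested genes). In 12 of 35 members the Purkinje array was lower in 4 of 4 hearts, which held for 17.2% of all tested genes. The hearts differed in this: 17 members were lower in heart 1, 22 in heart 2, 28 in heart 3 and 27 in heart 4. Member medians in hearts 1 to 4 were 0.01, -0.13, -0.24 and -0.23 on the log2 scale, with 0.00, 0.07, 0.06 and 0.07 over all tested genes. For the 8 main cardiac genes that did not pass (Myh6, Actc1, Tnnt2, Tnni3, Tnnc1, Tpm1, Ttn and Actn2), 13 of the 16 values in hearts 1 and 2 were above 0 and 0 of the 16 in hearts 3 and 4. This count leaves out the main cardiac genes that passed, of which Mybpc3 and Des were below 0 and Myh7 above 0 in each heart. Without heart 1, 2 members were higher and 11 lower, where the shares over all tested genes were 10.8% and 8.78% of all tested genes. Without heart 3 the same 2 were higher, Myh7 and Tnnt1, and 0 lower, where the shares were 4.7% and 2.48%; 10 members were lower at an unadjusted limma p under 0.05, as were 10.5% of all tested genes.

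**Figure D4:**
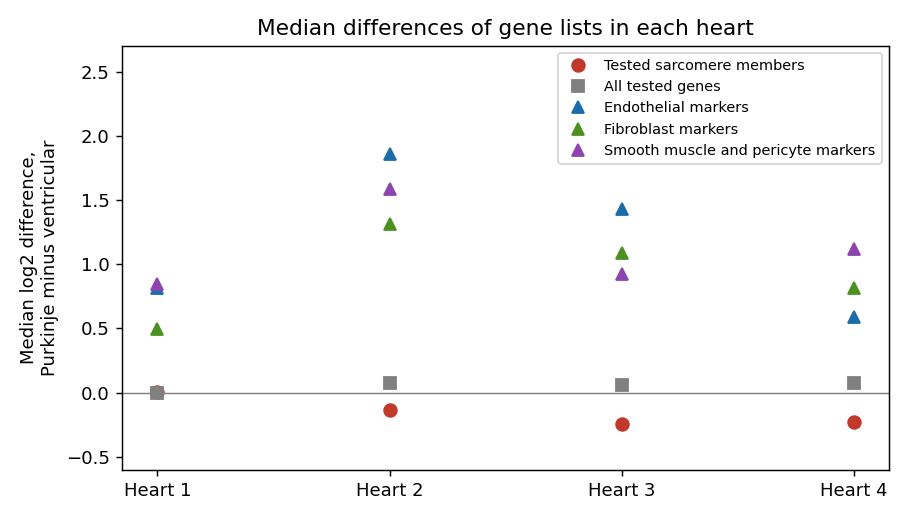
Median log2 difference, Purkinje minus ventricular, in each heart for the 35 tested sarcomere members, all 12318 tested genes and 3 marker lists of other cell types. Sarcomere medians run from 0.01 in heart 1 to -0.24 in heart 3, while the marker medians are above 0 in every heart.

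Of the 35 tested members 16 had a mean signal above 4000, a limit chosen after the values were seen, on arrays whose highest probe set read 15502 to 19974, and whether differences are compressed at such signals was not tested.

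Promoters are printed for both members that rose and for a pair of those that fell, as the upstream windows of genes whose signals parted in opposite directions. Acta1 and Trim63 had the 2 largest decreases among the 6 lower members with a listed window used here. The sequences are the 250 bases before the annotated start, 5′ to 3′ on the gene's strand, from RefSeq in build GRCm38.p6. Capitals mark matches, on either strand, to the CArG box (bound by serum response factor), the MEF2 site, and CATTCC, the core of the muscle M-CAT element (bound by TEAD factors). Myh7 lies at chr14:54994550-54994799 (minus strand, the more downstream of 2 listed starts), Tnnt1 at chr7:4515976-4516225 (minus), Acta1 at chr8:123894776-123895025 (minus) and Trim63 at chr4:134314870-134315119 (plus).
Myh7: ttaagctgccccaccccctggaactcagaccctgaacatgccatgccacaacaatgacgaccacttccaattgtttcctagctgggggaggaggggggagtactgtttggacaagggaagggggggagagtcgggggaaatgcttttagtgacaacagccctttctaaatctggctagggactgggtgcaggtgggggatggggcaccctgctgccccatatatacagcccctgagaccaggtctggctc
Tnnt1: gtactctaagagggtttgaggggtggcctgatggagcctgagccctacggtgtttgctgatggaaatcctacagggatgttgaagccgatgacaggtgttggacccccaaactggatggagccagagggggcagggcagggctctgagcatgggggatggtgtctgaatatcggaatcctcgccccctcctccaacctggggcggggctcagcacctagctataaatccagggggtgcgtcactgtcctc
Acta1: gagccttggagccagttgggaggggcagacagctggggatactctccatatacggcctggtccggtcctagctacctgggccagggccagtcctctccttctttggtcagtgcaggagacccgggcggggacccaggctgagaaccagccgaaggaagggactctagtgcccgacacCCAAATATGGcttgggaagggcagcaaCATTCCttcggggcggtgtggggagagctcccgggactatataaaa
Trim63: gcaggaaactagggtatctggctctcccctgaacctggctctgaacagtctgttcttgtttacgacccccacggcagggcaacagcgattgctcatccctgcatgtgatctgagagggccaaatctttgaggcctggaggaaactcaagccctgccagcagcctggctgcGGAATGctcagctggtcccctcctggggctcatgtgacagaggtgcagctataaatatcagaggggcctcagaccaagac
Acta1 held a CArG box at 73 to 64 bases before the start and CATTCC at 46 to 41, and Trim63 held CATTCC, on the other strand, at 80 to 75. No match lay in the Myh7 or Tnnt1 window, which says only that these letters are not there. Over the 6 lower members with a window, 2 held a CArG box (Acta1 and Myom1), 1 a MEF2 site (Mybpc3) and 2 CATTCC (the 2 shown). Of all 32851 listed promoter windows 1.47% held a CArG box, 2.92% a MEF2 site and 12.6% CATTCC. Of the 30 members with a listed promoter 5, 6 and 8 did. CANNTG, the E-box core, was in 66.2% of all windows and 24 of the 30, among them 2 of 2 higher and 5 of 6 lower members. A match is a description and not a binding site.

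Other genes of the sarcomere were counted from a list outside the panel. Of 27 tested, 8 were higher and 2 lower, or 29.6% and 7.41% (median 0.11), where 9.64% and 7.48% of all tested genes were. Myl4, an atrial light chain gene, had a log2 difference of 3.72 ± 0.32 and did not pass without the block (adjusted p = 0.0505, limma). Its signal was 2097, 3964, 1353 and 304 in Purkinje and 81.5, 678.5, 48.2 and 42.3 in ventricular arrays, so the groups overlapped. Myl9, a smooth muscle and non-muscle light chain gene, had a log2 difference of 2.50 ± 0.18. Myl7, another atrial light chain gene, was at 1740, 3920, 377 and 4.7 in Purkinje and 10.2, 281.5, 21.7 and 0.9 in ventricular arrays. Neb, which encodes the giant thin filament ruler of skeletal muscle, was at 14.2, 60.6, 52.5 and 60 against 11.8, 20.1, 5.7 and 8.1. Both passed as higher (adjusted p = 0.000739 and 0.0281, limma), but 2 ventricular arrays of Myl7 and 3 of Neb, and 1 Purkinje array of each, were under the signal limit, so no size of difference is given. The share of 29.6% counts both. Without the block 3 of these genes passed, all as higher, namely Tpm3, Myl1 and Myl9.

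Of 46 tested Z-disc signalling, chaperone and turnover genes 5 were higher and 13 lower, or 10.9% and 28.3% (median -0.18), where 9.64% and 7.48% of all tested genes were. The 13 decreases ran from -0.93 to -0.28 on the log2 scale. The 4 largest differences were increases, in Pdlim3, a LIM protein of the alpha-actinin-associated kind (514 ± 121 against 140 ± 33.1, log2 difference 1.88 ± 0.20), Csrp1 (1.64 ± 0.16), Csrp2 (1.28 ± 0.24) and Vim (1.13 ± 0.15). Csrp1 and Csrp2 encode LIM proteins known from smooth muscle, and Vim encodes vimentin, the intermediate filament of mesenchymal and endothelial cells. Without the block 7 genes of this list passed, 2 as higher (Pdlim3 and Csrp1) and 5 as lower. The 5, named after their values were seen, were Ankrd23, a titin-binding ankyrin repeat gene, Fhl2, a LIM protein gene, Trim54, a ubiquitin ligase gene related to Trim63, Ckm, muscle creatine kinase, and Hspb8, a small heat shock protein gene.

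Among 9 tested slow skeletal, embryonic or fetal isoform genes, which include panel members, Myl7, Myl4, Tnnt1 and Myh7 were higher and Acta1 lower (median 0.32), and none passed without the block. Of the 9 slow or fetal genes 44.4% were thus higher and 11.1% lower, where 9.64% and 7.48% of all tested genes were. The 44.4% counts Myl7, which was under the signal limit on 2 ventricular arrays. The called genes of this list were also counted above, in the panel or among the other sarcomere genes. Among 9 tested fast skeletal isoform genes Pvalb, a calcium buffer, and Myl1, an alkali light chain (1.61 ± 0.24), were higher and 0 lower, and both also passed without the block. They were 22.2% of this list, where 9.64% of all tested genes were higher and 7.48% lower. Pvalb was at 44.9, 207.7, 327.6 and 80.9 in Purkinje cells and at 4.1, 2.9, 2.9 and 8.2 in ventricular myocytes. All 4 ventricular signals were under the limit of 19.9, so Pvalb passed that limit only through its Purkinje arrays and no size of difference is given. For the same reason its calls, and the 22.2% that counts it, are not taken as support. Myl1 was at 882, 2133, 2414 and 2228 in Purkinje and 584, 978, 436 and 475 in ventricular arrays, with 1 overlapping pair. The atrial marker list, which holds Myl7 and Myl4, was higher on the same Purkinje arrays, and its part in these values was not tested.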

How the data were processed

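Per the labels, Purkinje cells and ventricular myocytes were sorted by FACS from enzymatically digested hearts, and RNA was isolated with PicoPure and amplified with a Nugen Ovation Pico kit for Affymetrix arrays. The deposited values are array intensity signals made by the authors with MAS5, per the submitters' processing notes, and the values show 1 trimmed mean of 150.001 per array. The authors' deposited table adds a ratio of group means and an unadjusted p-value for each probe set. Probe sets were named by the platform annotation, updated to GRCm38.p6, which changed 0 symbols. The panel and lists were chosen with earlier results of these data known. Signals were taken to log2 without further scaling, with values of 0 set to 0.1.

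Both cell types entered a two-sided limma fit (limma 3.58.1, R 4.3.3) with the heart as a block and variances moderated along a trend in the mean, at an adjusted p of 0.05. The pairing comes from the series design, which names 4 hearts. Deviations of same-numbered arrays from their group means correlated at 0.38, 0.23, 0.27 and 0.27. Those of differently numbered arrays correlated at 0.09 to 0.22 within hearts 1 and 2 or within hearts 3 and 4. Between these sets of hearts they correlated at -0.30 to -0.14, so the values part hearts 1 and 2 from hearts 3 and 4 and not only single hearts. Values on every array were given for members that passed and for 11 main cardiac isoforms, and the 4 largest called genes of each other list were named. Alternatives were other scalings, filters, offsets, probe set rules, variance models, the authors' p-value, no block, and leaving out each heart or array.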

Additional observations from a re-analysis of the deposited data

Results flagged for a closer look

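In 72 groups of 4 arrays (36 members, 2 cell types), 3 single arrays stood apart from the other 3 by Dixon's ratio on log2 signals, and chance flags about 1 group in 20. Tpm2 was at 364 on ventricular replicate 2 and 278 to 285 on the other ventricular arrays. Mypn, which encodes the Z-disc protein myopalladin, read 614 on Purkinje replicate 2, against 996 to 1031 on the remaining Purkinje arrays. Synpo2l was at 2542 on ventricular replicate 1 and 3407 to 3478 on the other ventricular arrays. None of the 3 genes passed the test between cell types.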

How the results depend on the processing

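Myh7 and Tnnt1 were the members called higher without any 1 heart in the blocked fit. Leaving out 1 heart gave 0 to 11 members called lower (0 without heart 3, 2 without heart 2, 3 without heart 4 and 11 without heart 1) and 811 to 2415 genes called. In the same order, 2.48%, 2.25%, 2.74% and 8.78% of all tested genes were called lower. Without the heart block 0 members were higher, 0 lower and 365 genes passed; leaving out 1 array in that fit gave 0 to 2 members higher, 0 to 2 lower and 38 to 957 genes (535, 123, 38 and 165 without Purkinje replicates 1 to 4, and 957, 101, 69 and 67 without the ventricular ones). With no variance trend 139 genes and 0 members passed in limma (7 members, or 20%, and 27.0% of all genes at an unadjusted p under 0.05). The authors' deposited p-value gave 0 genes after adjustment and so 0 members (2617 genes, or 21.2%, and 11 members at an unadjusted p under 0.05). Quantile normalization gave 4 members higher and 4 lower. Averaging probe sets by gene gave 3 of 34 members higher and 7 lower (8.82% and 20.6%), where 8.81% and 5.97% of all genes in that fit were. Tpm1 turned to 0.48, Des was lost (adjusted p = 0.104, limma) and Ldb3 gained (0.0258). Median centring, which moved the median of all tested genes to -0.35, gave 1 higher, 27 lower and 4508 genes, with a member median of -0.58. No filter and robust variances each left 2 higher and 5 lower. Without the filter these were 5.56% and 13.9% of 36 members, where 5.63% and 4.18% of all genes were. With robust variances they were 5.71% and 14.3% of 35, where 9.69% and 7.57% of all genes were. Mybpc3 and Myom1 (adjusted p 0.0626 and 0.0742, limma) were lost without the filter, and Acta1 and Myot (0.20 and 0.0749) with robust variances. The cause of these changes was not tested. Probe sets near the signal limit, such as Tnni1 and Myom3, are limited by signal over background.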
